A study of Mus musculus with 35 samples.

Results

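Hepatocyte nuclei of mice bearing NC26 tumors, which the study describes as giving cancer without weight loss, were compared with hepatocyte nuclei of mice given PBS in the same cohort. The comparison used 8 of the series' 35 ATAC-seq libraries, chosen by their labels as all NC26 tumor and all NC26 PBS libraries. ATAC-seq inserts sequencing adapters into accessible DNA, so the number of tags at a place measures how open its chromatin is. The tumor group held 4 BALB/c mice labelled NC26_Weight_stable_cancer and the control group held 4 BALB/c mice labelled PBS_Control. Every mouse in both groups carried CAG-Sun1/sfGFP, a green fluorescent tag of the nuclear envelope, and Albumin-Cre, which switches that tag on in cells that have made albumin. Tagged nuclei were pulled out of whole liver on beads, a method known as INTACT, and livers were collected at zeitgeber time (ZT) 9, counted in hours of the light cycle. The groups set beside them were C26_Cachexia and C26_Pre-Cachexia with their own PBS_Control mice (BALB/c), and MC38_Weight_stable_cancer with its own PBS_Control mice (C57BL/6N), each with 4 mice and the same tag and Cre. The remaining libraries of the series came from mice of a further cachexia model and from their own PBS mice. Tumor cells were implanted into syngenic hosts, and more than 10% weight loss set the time of collection for the C26_Cachexia mice, not for the C26_Pre-Cachexia mice. The sources used here state no age, sex or weight for the NC26 mice, and no time between implantation and collection. NC26 is a single tumor line and each group of 4 mice comes from 1 cohort.

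Hepatocytes answer inflammation elsewhere in the body through the acute phase response, in which interleukin-6 acting through STAT3, together with NF-kB, AP-1 and C/EBP factors, turns on genes for secreted plasma proteins. The metallothioneins Mt1 and Mt2 bind zinc and are induced in liver by metals, glucocorticoids and inflammatory cytokines, and the metal-responsive factor MTF-1 acts on them through short metal response elements near their start sites. Open chromatin at promoters and at distant enhancers is where such factors bind, and its change need not be matched by a change in the RNA of the nearest gene.

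The libraries held 3.475, 11.7, 14.9 and 15.7 M tags in tumor replicates 1 to 4, against 12.1, 14.3, 12.3 and 16.5 M in PBS replicates 1 to 4. Tumor replicate 1 was the shallowest library of the whole series and had no tag in 10.3% of regions, while the other 3 tumor libraries had none in 0.684 to 1.49%. Replicates 1 and 2 of each group came from library numbers 59xx and replicates 3 and 4 from 64xx, so both number series were balanced between the groups. Promoters of 24 of the 25 hepatocyte identity genes examined had a region within 1 kb, and their summed level was 2700 to 3270 scaled tags in tumor libraries and 2840 to 3080 in PBS libraries. The Alb promoter averaged 302 and 296 scaled tags in tumor and PBS libraries. None of the 12 lymphocyte markers and 1 of 12 macrophage markers (Adgre1, at 2.88 and 3.01) had a promoter region, so the defining markers Cd3e, Cd68 and Clec4f were without one. Neutrophil, endothelial, stellate and cholangiocyte markers had promoter regions for 2 of 10, 4 of 12, 5 of 11 and 6 of 10 genes, with summed levels of 37 to 49.5, 21.8 to 27, 52.6 to 100 and 113 to 145 scaled tags in tumor libraries, and 36.6 to 39.6, 22.2 to 25.4, 59.1 to 75.8 and 113 to 153 in PBS libraries. The data thus carried the open promoters of hepatocytes, and no marker promoter of another cell type passed the test between the groups.

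Promoter sequences of the genes whose start sites opened are shown first, because the results below return to them. Each runs 5′ to 3′ from 250 bases before to 50 bases after the start site in RefSeq's GRCm38.p6 annotation, and capitals mark motif matches on either strand. The metal response element core was searched as TGCGCNC or TGCACNC, the STAT site as TTCNNNGAA, AP-1 as TGANTCA, the cyclic AMP response element as TGACGTCA and C/EBP as TTGCNNAA, and matches of different motifs did not overlap in these windows. Mt2 lies at chr8:94172368-94172667 on the plus strand, Mt1 at chr8:94178839-94179138 on the plus strand, Irf1 at chr11:53769764-53770063 on the plus strand and Apcs at chr1:172895005-172895304 on the minus strand.
Mt2: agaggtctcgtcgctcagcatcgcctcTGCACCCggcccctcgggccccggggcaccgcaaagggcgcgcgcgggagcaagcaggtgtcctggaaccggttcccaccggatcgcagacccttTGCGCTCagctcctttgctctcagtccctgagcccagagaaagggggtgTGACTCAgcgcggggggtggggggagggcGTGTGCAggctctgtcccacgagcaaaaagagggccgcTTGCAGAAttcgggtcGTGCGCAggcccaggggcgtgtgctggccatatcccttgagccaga
Mt1: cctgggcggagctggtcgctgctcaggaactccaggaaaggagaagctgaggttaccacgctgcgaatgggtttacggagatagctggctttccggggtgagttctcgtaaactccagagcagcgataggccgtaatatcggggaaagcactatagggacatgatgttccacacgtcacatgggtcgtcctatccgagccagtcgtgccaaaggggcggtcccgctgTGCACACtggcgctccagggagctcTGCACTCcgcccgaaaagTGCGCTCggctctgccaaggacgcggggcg
Irf1: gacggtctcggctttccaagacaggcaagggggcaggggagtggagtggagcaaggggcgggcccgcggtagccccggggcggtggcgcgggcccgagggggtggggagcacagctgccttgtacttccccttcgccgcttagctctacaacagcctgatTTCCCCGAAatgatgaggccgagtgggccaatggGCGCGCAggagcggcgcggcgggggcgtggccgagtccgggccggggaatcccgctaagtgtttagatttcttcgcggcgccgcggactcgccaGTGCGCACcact
Apcs: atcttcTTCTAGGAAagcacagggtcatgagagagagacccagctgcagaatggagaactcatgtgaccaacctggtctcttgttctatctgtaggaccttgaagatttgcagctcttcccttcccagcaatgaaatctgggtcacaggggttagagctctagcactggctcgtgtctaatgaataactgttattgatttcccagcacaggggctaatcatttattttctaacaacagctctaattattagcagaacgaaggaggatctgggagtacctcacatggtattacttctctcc
The Mt2 window held 4 metal response element cores, 1 AP-1 match and 1 C/EBP match, and the Mt1 window held 3 metal response element cores, of which the first (TGCACAC) starts 23 bases before the start site. Of 32851 RefSeq promoter windows of this length, 25.7% held at least 1 such core and 0.295% held 4 or more. The Irf1 window held 1 STAT match (TTCCCCGAA) and 2 core matches, and the Apcs window held 1 STAT match (TTCTAGGAA), which 8.3% of promoter windows hold. Of the 300 bases of each window, 199 at Mt2, 260 at Mt1, 300 at Irf1 and 264 at Apcs lay in the tested region. The first Mt2 core (TGCACCC) and the Apcs STAT match lay outside the tested regions. The Fos window, not shown, had no match to any of these motifs. A match says only that these letters occur in the window.

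Few regions of open chromatin differed between NC26 tumor and PBS hepatocytes. Of 177251 regions tested, each 400 bp around a merged peak, 259 rose in NC26 tumor hepatocytes (0.146%) and 71 fell (0.0401%), at an adjusted p under 0.05 from limma with Benjamini-Hochberg adjustment. The regions that rose had a median of 36.5 scaled tags in tumor libraries and 15 in PBS libraries (median log2 change 1.17). Scaled tags are tags per 10 M after adjustment of each library by TMM, a scaling that takes most regions as unchanged, and log2 changes are on the scale of scaled tags plus 1, which understates changes at low values. Because each library pools many nuclei, a wider opening in every nucleus and an opening in more of the nuclei cannot be told apart. At an unadjusted p under 0.05, 8086 regions were higher and 10389 lower, and the median log2 change over all regions was -0.03. The balance of rises and falls depended on single libraries: without tumor replicate 2, 585 rose and 602 fell, and in library series A alone 31 rose and 104 fell. The fit took its spread from all 35 libraries, and with only the 8 NC26 libraries fitted, 67 regions rose and 4 fell.

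The rises were spread over 209 nearest genes and 235 separate places. They lay in intergenic DNA in 51% of cases, against 33.7% of tested regions, and in promoters in 6.56%, against 12.2% of tested regions. The 4 tumor libraries lay wholly above the 4 PBS libraries in 237 of the 259, where 1.94% of all tested regions showed that order. The 259 were chosen by a test on these same libraries, which favors that order, so the count is no separate support. In 98 of the 259 a peak had been listed in all 8 libraries, and in 10 a peak was listed in the 4 tumor libraries and in none of the PBS libraries. In 23 no NC26 library had a peak listed, among them Gsap and the regions at the 3′ ends of Socs3 and Junb named below. The shares of all tested regions with these peak listings were not computed. Tumor replicate 1 was the highest tumor library in 133 of the 259, against 26.8% of all tested regions. Tumor replicate 2 was the lowest in 141 of the 259, against 24.4% of all tested regions. Without tumor replicate 1, 73 regions rose, of which 70 were among the 259, and edgeR's quasi-likelihood test on whole read ends called 136, all among the 259. Where library totals alone set the scale, the median of all regions was 0.073 in place of -0.03, 214 regions rose and 18 fell.

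The largest rise among the named regions was at the metallothionein locus on chromosome 8. The Mt2 promoter (chr8:94172469-94172869), part of whose sequence is given above, had 99.8, 35.9, 74.2 and 24.1 scaled tags in tumor replicates 1 to 4, against 7.12, 7.9, 6.4 and 9.22 in PBS replicates 1 to 4. All 4 tumor libraries lay above every PBS library, with replicate 1 highest and replicate 4 lowest. The rise was 5.99-fold on the scale of scaled tags plus 1 (log2 change 2.58 ± 0.387 SE, adjusted p = 0.00206). The Mt1 promoter (chr8:94178879-94179279) had 274, 162, 185 and 102 scaled tags in tumor replicates 1 to 4 and 40, 57.9, 56.7 and 79.2 in PBS replicates 1 to 4. Its groups did not overlap either, and it rose by a log2 change of 1.57 ± 0.277 SE (adjusted p = 0.012). Another region 7665 bp downstream of the Mt1 start averaged 55.8 ± 7.96 and 32 ± 4.61 scaled tags in tumor and PBS libraries (SD, n = 4 each) and rose by 0.78 (adjusted p = 0.0113). Of 80 regions nearest to, and within 100 kb of, the 8 metallothionein and zinc genes examined, these 3 rose (3.75%, against 0.146% of all tested regions) and 0 fell. Slc39a14, a zinc importer of hepatocytes induced by interleukin-6, averaged 185 ± 7.52 and 159 ± 3.76 scaled tags at its promoter, a difference of 0.22 that did not pass (adjusted p = 0.387). The Mt2 call held with each of the 8 libraries left out in turn (adjusted p up to 0.0231), whereas the Mt1 promoter missed the threshold without tumor replicate 1 or PBS replicate 1 (0.0652 to 0.0959) and the downstream region without tumor replicate 1 or PBS replicate 3 (0.0655 to 0.112).

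Among early response and interferon genes, the promoters of Fos and Irf1 rose, with the lowest adjusted p of the 55 promoters examined. Fos encodes a subunit of the AP-1 factor and is induced within minutes by growth factors and cytokines. Its region at -337 bp (chr12:85473353-85473753) had 144, 114, 112 and 120.0 scaled tags in tumor replicates 1 to 4 and 66.3, 85.4, 65.9 and 72.0 in PBS replicates 1 to 4 (log2 change 0.75 ± 0.121 SE, adjusted p = 0.000887). Irf1, a transcription factor induced by interferon and by STAT signalling, had 113, 120.5, 110.3 and 116 scaled tags at its promoter (chr11:53769698-53770098) in tumor replicates 1 to 4, against 65.8, 62.5, 66.3 and 87.9 in PBS replicates 1 to 4. It rose by 0.71 ± 0.115 SE (adjusted p = 0.000948), and PBS replicate 4 stood above the other PBS libraries. The groups did not overlap at either promoter, and both calls held with each of the 8 libraries left out in turn. The region at the 3′ end of Junb, another AP-1 subunit, averaged 60.6 ± 16.0 scaled tags in tumor libraries and 36.1 ± 6.95 in PBS libraries (SD, n = 4 each) and rose by 0.72 (adjusted p = 0.0196). That call was lost without tumor replicate 1 or PBS replicates 1 or 3 (adjusted p 0.0821 to 0.163). Of 315 regions of 24 AP-1 and immediate early genes, these 2 rose (0.635%, against 0.146% of all tested regions) and 0 fell. Of 173 regions of 27 interferon and antigen presentation genes 1 rose (Irf1) and 0 fell, and a single region is too few to set the list apart from that background.

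Acute phase genes, which encode plasma proteins made by hepatocytes in inflammation, were higher in many regions and passed the test in few. Of 424 regions nearest to 30 acute phase genes, 4 rose (0.943%) and 1 fell (0.236%), against 0.146% and 0.0401% of all tested regions. At an unadjusted p under 0.05, 18.2% of these regions were higher and 5.42% lower, against 4.56% and 5.86% of all tested regions, and their median log2 change was 0.106, against -0.03. The rises lay at Apcs (2 overlapping regions at the start site), Orm1 and Fgl1. Apcs encodes serum amyloid P, the major pentraxin of the mouse acute phase. Its promoter (chr1:172894868-172895268) had 94.4, 73.9, 107 and 83.7 scaled tags in tumor replicates 1 to 4, against 52, 45.9, 66.8 and 53.6 in PBS replicates 1 to 4 (log2 change 0.71, adjusted p = 0.0452). The lowest tumor library stood just above the highest PBS library. The overlapping region inside the 5′ UTR averaged 37.6 ± 9.62 scaled tags in tumor libraries and 18.8 ± 6.11 in PBS libraries (log2 change 0.97, adjusted p = 0.0342), and there the groups overlapped.

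Orm1, which encodes the carrier protein orosomucoid, rose at -5638 bp (chr4:63338718-63339118), with 127 ± 9.2 scaled tags in tumor libraries and 78 ± 11.1 in PBS libraries (SD, n = 4 each, log2 change 0.70, adjusted p = 0.0418). The Fgl1 gene, whose product is a fibrinogen-like protein secreted by hepatocytes, changed in both directions. Its region at -1087 bp (chr8:41216043-41216443) had 67.5, 37.5, 50.9 and 54.5 scaled tags in tumor replicates 1 to 4, against 27.1, 24.1, 23.8 and 20.5 in PBS replicates 1 to 4, and rose (log2 change 1.09, adjusted p = 0.017). Its region at 20857 bp in an intron fell, with values given among the falls. These acute phase calls rested on narrow margins: with 1 library left out in turn, the Apcs promoter passed in 1 of 8 fits (without tumor replicate 2), Apcs in the 5′ UTR in 3, Orm1 in 2 and Fgl1 at -1087 bp in 5, and all 4 missed without tumor replicate 1 (adjusted p 0.158 to 0.251).

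Cytokine signalling genes had 6 rises and 1 fall. Of 523 regions of 25 genes of interleukin-6, STAT3 and NF-kB signalling, 1.15% rose and 0.191% fell, against 0.146% and 0.0401% of all tested regions, and the rises lay at Tnfrsf1a, Bcl3, Socs3 and Socs2. Tnfrsf1a encodes the main receptor of tumor necrosis factor, and its intron region (chr6:125354798-125355198) had 52.6, 26.8, 44.2 and 33.2 scaled tags in tumor replicates 1 to 4, against 15.6, 12.8, 16.9 and 14.7 in PBS replicates 1 to 4 (log2 change 1.29 ± 0.213 SE, adjusted p = 0.00122). Bcl3 encodes an NF-kB cofactor, and its intron region (chr7:19816327-19816727) had 169, 175, 163 and 168 scaled tags in tumor replicates 1 to 4, against 101, 117, 123 and 114 in PBS replicates 1 to 4 (log2 change 0.57 ± 0.101 SE, adjusted p = 0.00361). The 4 tumor libraries stood above all PBS libraries at both, and both calls held with each of the 8 libraries left out in turn. An overlapping region of Tnfrsf1a, which shares tags with the first, rose too, by 1.21 (adjusted p = 0.0113). The 6 rises are therefore not 6 separate places. A neighbouring region of Bcl3 rose by 0.80 (adjusted p = 0.0232).

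The feedback inhibitors of cytokine receptors Socs3 and Socs2 each had 1 region that rose. The Socs3 region lay in its 3′ UTR, 2678 bp from the start site, and averaged 40.1 ± 12.4 scaled tags in tumor libraries and 18.5 ± 2.86 in PBS libraries (log2 change 1.04, adjusted p = 0.0084). The Socs2 region lay 6594 bp from the start site and averaged 49.2 ± 9.72 and 26.7 ± 4.66 scaled tags in tumor and PBS libraries (log2 change 0.85, adjusted p = 0.0212). The 1 fall lay in an intron of Il6ra, which encodes the interleukin-6 receptor, at low values: 0, 4.82, 4.36 and 3.12 scaled tags in tumor replicates 1 to 4, against 10.2, 8.66, 11.9 and 9.22 in PBS replicates 1 to 4 (log2 change -1.70, adjusted p = 0.0211). All 4 tumor libraries were below all PBS libraries there, and tumor replicate 1 had no tag. The calls at Socs3, Socs2, Il6ra, the overlapping Tnfrsf1a region and the neighbouring Bcl3 region were all lost without tumor replicate 1 (adjusted p 0.0665 to 0.242) and without 1 to 4 of the other libraries.

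Ccnd1, which encodes cyclin D1, the regulator of entry into the cell cycle, had 4 regions that rose, at distances of -91067 to -103794 bp from its start site. The region at -101128 bp (chr7:145040853-145041253) had 75.5, 43.9, 49.2 and 41.4 scaled tags in tumor replicates 1 to 4, against 19.1, 18.1, 9.15 and 16.7 in PBS replicates 1 to 4 (log2 change 1.68 ± 0.241 SE, adjusted p = 0.000397). The call held with each of the 8 libraries left out in turn. The neighbouring region at -103617 bp (chr7:145043342-145043742), chosen after its values were seen because it and an overlapping region had the lowest adjusted p of all rises, averaged 148 ± 26.6 scaled tags in tumor libraries and 59.7 ± 8.3 in PBS libraries (SD, n = 4 each, log2 change 1.29 ± 0.143 SE, adjusted p = 3.13e-06). At the Ccnd1 promoter itself the values were 13.1 ± 3.29 and 8.27 ± 1.13 scaled tags, and the difference of 0.58 did not pass (adjusted p = 0.389). Of 153 regions within 100 kb of 20 cell cycle genes, 1 rose, the Ccnd1 region at -91067 bp, and 0 fell, where 0.146% of all tested regions rose.

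The other named rises lay near genes of adhesion, signalling, transcription and secretion. Afdn encodes afadin, which ties nectins to actin at cell junctions, and a region annotated to a 3′ UTR at -43955 bp from its start (chr17:13716386-13716786) had 67.5, 27.9, 38.7 and 50.5 scaled tags in tumor replicates 1 to 4, against 9.79, 6.4, 9.6 and 8.06 in PBS replicates 1 to 4 (log2 change 2.26 ± 0.309 SE, adjusted p = 0.000541). Tshz2 encodes a zinc finger transcription factor, and a region at -243168 bp (chr2:169390278-169390678) had 21.6, 16.6, 33.2 and 20.4 against 3.56, 7.53, 4.57 and 5.19 scaled tags in tumor and PBS replicates 1 to 4 (log2 change 1.94 ± 0.272 SE, adjusted p = 0.000138). Prune1, which encodes a cytosolic phosphodiesterase, rose in an intron (chr3:95267763-95268163), with 54, 33.2, 37.3 and 84.8 against 14.2, 10.5, 13.7 and 19.6 scaled tags in tumor and PBS replicates 1 to 4 (log2 change 1.71 ± 0.241 SE, adjusted p = 0.0003). At all 3 the tumor libraries stood clear of the PBS libraries, and the Prune1 call passed in each of the 22 alternative settings tried (adjusted p up to 0.0348).

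Rarres1, named for its response to retinoic acid, rose in an intron (chr3:67490089-67490489), with 41.1 ± 11.2 scaled tags in tumor libraries and 11.2 ± 3.72 in PBS libraries (SD, n = 4 each, log2 change 1.79, adjusted p = 0.00361). Fetub encodes fetuin-B, a protease inhibitor secreted by the liver, and its first intron region at 409 bp (chr16:22918591-22918991) had 131, 65.3, 77.1 and 41.1 scaled tags in tumor replicates 1 to 4, against 21.3, 19.2, 19.7 and 11.5 in PBS replicates 1 to 4 (log2 change 1.99, adjusted p = 0.0322). Tab2, an adaptor of the kinase TAK1 in interleukin-1 and tumor necrosis factor signalling, rose at -140086 bp (chr10:8096009-8096409), with 21.6, 11.8, 16.9 and 61.3 scaled tags in tumor replicates 1 to 4 and 5.34, 3.01, 7.31 and 5.19 in PBS replicates 1 to 4 (log2 change 1.99, adjusted p = 0.00695). The groups were apart at all 3, with tumor replicate 4 far above the other tumor libraries at Tab2 and lowest of them at Fetub. The remaining 4 were Shisa5 (a membrane protein gene), Ptprn2 (a phosphatase-like protein of secretory granules), Gsap (an activator of gamma-secretase) and Apbb1 (an adaptor of the amyloid precursor protein), with log2 changes of 2.26, 1.84, 1.80 and 1.73 and adjusted p of 0.0155, 0.00793, 0.045 and 0.00962.

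All 12 named rises kept their direction in every alternative setting, which the naming rule nearly ensured by requiring groups that do not overlap. Of the 12, 6 (Mt2, Afdn, Tshz2, Rarres1, Prune1 and Ccnd1) stayed past the threshold with each of the 8 libraries left out in turn. The other 6 missed it without tumor replicate 1, with adjusted p of 0.0727 at Tab2, 0.0882 at Ptprn2, 0.0959 at Apbb1, 0.134 at Shisa5, 0.19 at Fetub and 0.232 at Gsap. Some of these also missed it without a PBS library: replicate 3 for Ptprn2, replicates 2, 3 or 4 for Shisa5, and each PBS replicate for Fetub and Gsap, which were lost without tumor replicate 3 too, and Gsap without tumor replicate 4. The plot of named regions by library shows these values.

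**Figure D1:**
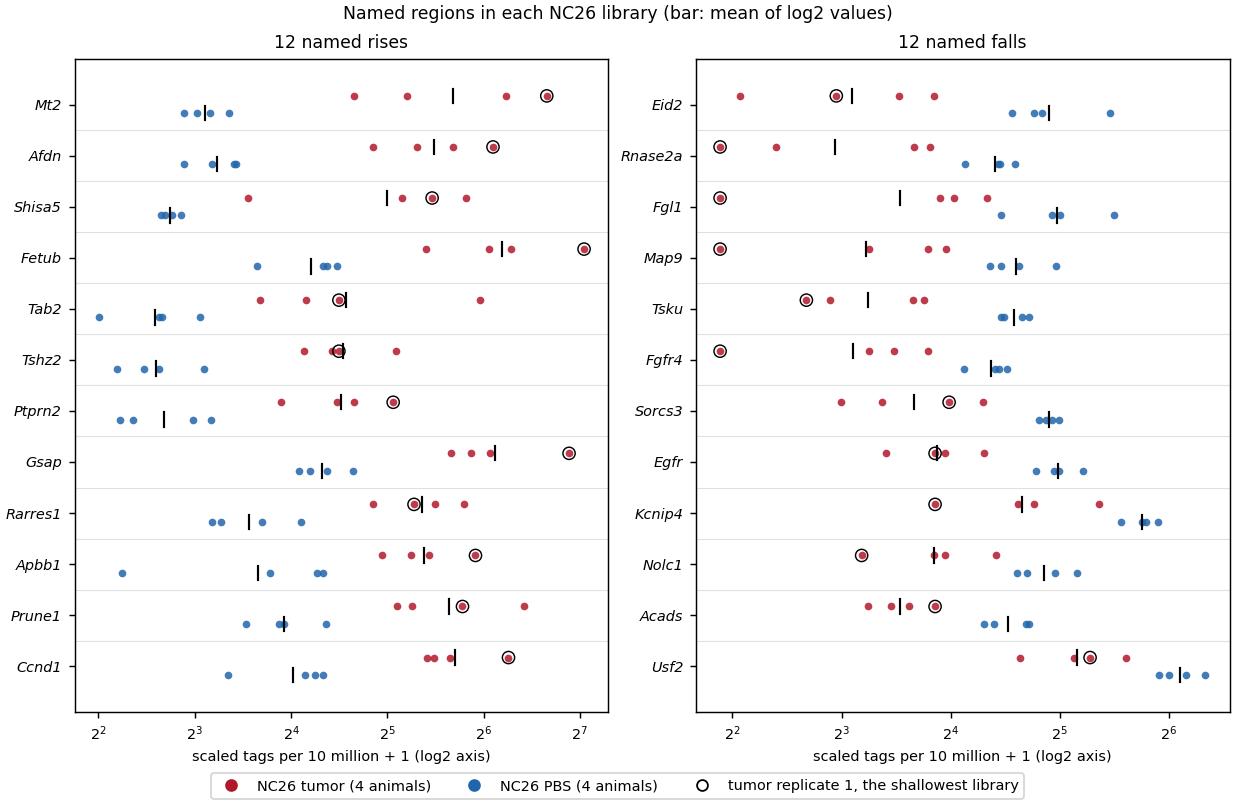
Scaled tags plus 1 (log2 axis) in each NC26 library for the 12 named rises (left) and 12 named falls (right), labelled by nearest gene; red points are the 4 tumor libraries, blue points the 4 PBS libraries, bars are group means of log2 values and rings mark tumor replicate 1. The groups do not overlap at any of these regions, which the naming rule required, and the ringed library is the lowest tumor library at several falls, such as Fgl1 and Fgfr4.

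A panel of 55 promoters of liver response genes placed these changes beside the rest of hepatocyte metabolism. Of the 55, 5 rose (Mt2, Mt1, Fos, Irf1 and Apcs) and 0 fell, where 0.146% of all tested regions and 0.0784% of tested promoter regions rose. At an unadjusted p under 0.05, 13 of the 55 were higher and 3 lower, where 4.56% and 5.86% of all tested regions were. The median log2 change of the panel was 0.054. In C26 cachexia 23 of the same promoters rose and 5 fell, where 6.91% of all tested regions rose and 7.13% fell. The nearest to passing was Itih3, which encodes a hyaluronan-binding plasma protein, with 104 ± 12.9 scaled tags in tumor libraries and 65 ± 5.69 in PBS libraries (log2 change 0.67, adjusted p = 0.0558). Lcn2, which encodes the iron-sequestering protein lipocalin 2, had 86.3, 73.9, 88.2 and 77.4 scaled tags in tumor replicates 1 to 4, against 59.1, 47.4, 31.1 and 40.3 in PBS replicates 1 to 4. Its groups were apart, but the difference of 0.89 did not pass (adjusted p = 0.0801).

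Other panel promoters did not pass either. Saa2, an acute phase serum amyloid, differed by 0.74 (adjusted p = 0.687). Orm1 averaged 164 ± 16.8 and 131 ± 15.4 scaled tags in tumor and PBS libraries (difference 0.32, adjusted p = 0.263), and Lbp, which encodes the lipopolysaccharide-binding protein, averaged 171 ± 13.3 and 140 ± 19.8 (difference 0.29, adjusted p = 0.32). Cyp8b1, the sterol hydroxylase that sets the share of cholic acid among bile acids, averaged 62.6 ± 6.03 in tumor libraries and 79.5 ± 3.85 in PBS libraries (difference -0.34, adjusted p = 0.402). The 43 promoters not given in full, among them Saa2, Saa1, Hp, Pck1, G6pc, Fasn and Cyp7a1, lay between -0.49 and 0.74, with no adjusted p below 0.418.

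**Figure D2:**
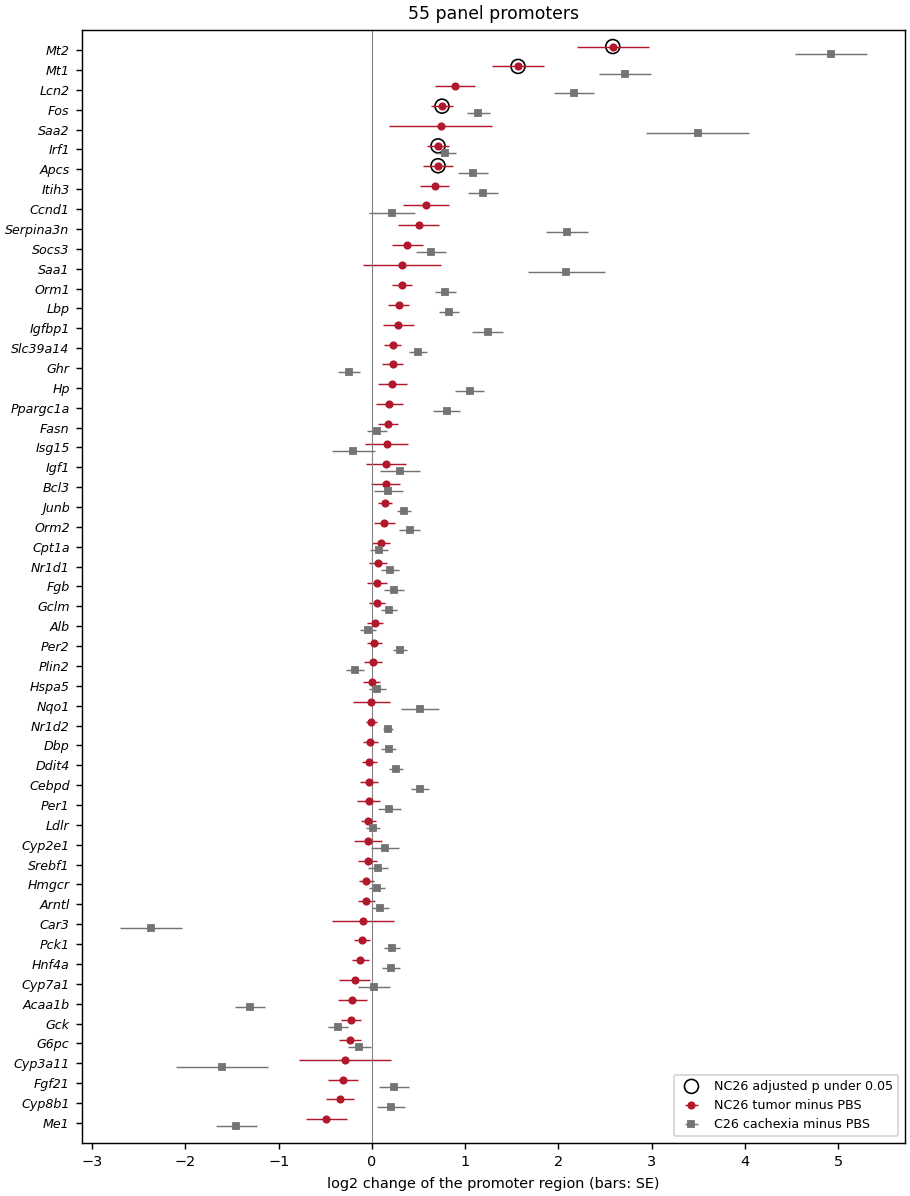
Log2 change of the promoter region of 55 panel genes in NC26 tumor minus NC26 PBS (red circles) and in C26 cachexia minus C26 PBS (grey squares), with bars of 1 SE and genes ordered by the NC26 change; open rings mark an adjusted p under 0.05 in NC26. The 5 ringed promoters are Mt2, Mt1, Fos, Irf1 and Apcs, and Saa2, Lcn2, Serpina3n and Saa1 show C26 changes above 2 beside NC26 changes below 0.9.

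Lists of metabolic genes had calls at or near the background of all tested regions, 0.146% risen and 0.0401% fallen, so their counts say nothing particular about them. Of 596 regions of 27 urea cycle and amino acid genes, 0 rose and 0 fell. Their median log2 change was -0.155, against -0.03 over all regions. At an unadjusted p under 0.05, 12.4% of them were lower and 1.68% higher, against 5.86% and 4.56% of all tested regions. Of 619 regions of 24 gluconeogenesis and glucocorticoid genes, 1 fell, at Klf15, and 0 rose, with 10.7% lower and 1.45% higher at an unadjusted p under 0.05 and a median of -0.118. Klf15 encodes a factor that drives amino acid breakdown and gluconeogenesis, and its region at -1087 bp (chr6:90461289-90461689) had 40.5, 61, 48.3 and 35.7 scaled tags in tumor replicates 1 to 4, against 84, 95.6, 69.1 and 91.6 in PBS replicates 1 to 4 (log2 change -0.88, adjusted p = 0.0276). Its groups did not overlap. The call was lost without tumor replicates 1 or 4 or PBS replicates 1, 2 or 4 (adjusted p 0.0814 to 0.158).

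Bile acid genes had 1 fall and 0 rises among 516 regions of 20 genes, a share of 0.194% fallen that rests on 1 region, with a median of -0.148. The fall lay 3073 bp downstream of the Cyp8b1 start (chr9:121913032-121913432), with 28.3, 43.4, 51.8 and 46.8 scaled tags in tumor replicates 1 to 4, against 70.2, 66.6, 75.9 and 72.9 in PBS replicates 1 to 4 (log2 change -0.77, adjusted p = 0.0175). All tumor libraries lay below all PBS libraries, and the call was lost without tumor replicate 1 or PBS replicates 1, 2 or 3 (adjusted p 0.0548 to 0.177). Xenobiotic metabolism genes had 0 calls among 356 regions and a median of -0.136, and fatty acid oxidation genes had 0 calls among 285 regions and a median of -0.131. Cholesterol, lipogenesis, growth hormone, stress response, NRF2 and clock lists also had 0 calls, with medians of -0.031, -0.114, -0.096, -0.024, -0.034 and -0.046. The lowest 25% of all tested regions by signal had a median of -0.09. Among regions at or above the median signal, the median was -0.106 for urea cycle, -0.107 for gluconeogenesis, -0.112 for bile acid, -0.085 for xenobiotic, -0.1 for fatty acid oxidation and -0.043 for growth hormone genes, against -0.02 for all regions. Insulin signalling genes had 1 rise among 609 regions (0.164%, near the 0.146% of all tested regions), at -97543 bp from Ptpn1 (log2 change 0.88, adjusted p = 0.00361), which encodes a phosphatase of the insulin receptor. Hepatocyte identity genes had 1 rise among 668 regions (0.15%, again near that background), at -29583 bp from Alb (log2 change 1.02, adjusted p = 0.0356), which was lost without tumor replicates 1 or 4 or PBS replicates 1, 2 or 3 (adjusted p 0.0501 to 0.158).

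Regions nearest to markers of other cell types had 0 calls in either direction in all 6 lists, but with 26 to 136 regions a list the shares over all tested regions (0.146% and 0.0401%) would also give few or none. Their medians lay between -0.091 for macrophages and 0.06 for stellate cells. Where library totals alone set the scale, every list's median was higher, and relative to the median of all regions the acute phase list stood at 0.13, the interferon list at 0.138, the urea cycle list at -0.123 and the gluconeogenesis list at -0.086.

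**Figure D3:**
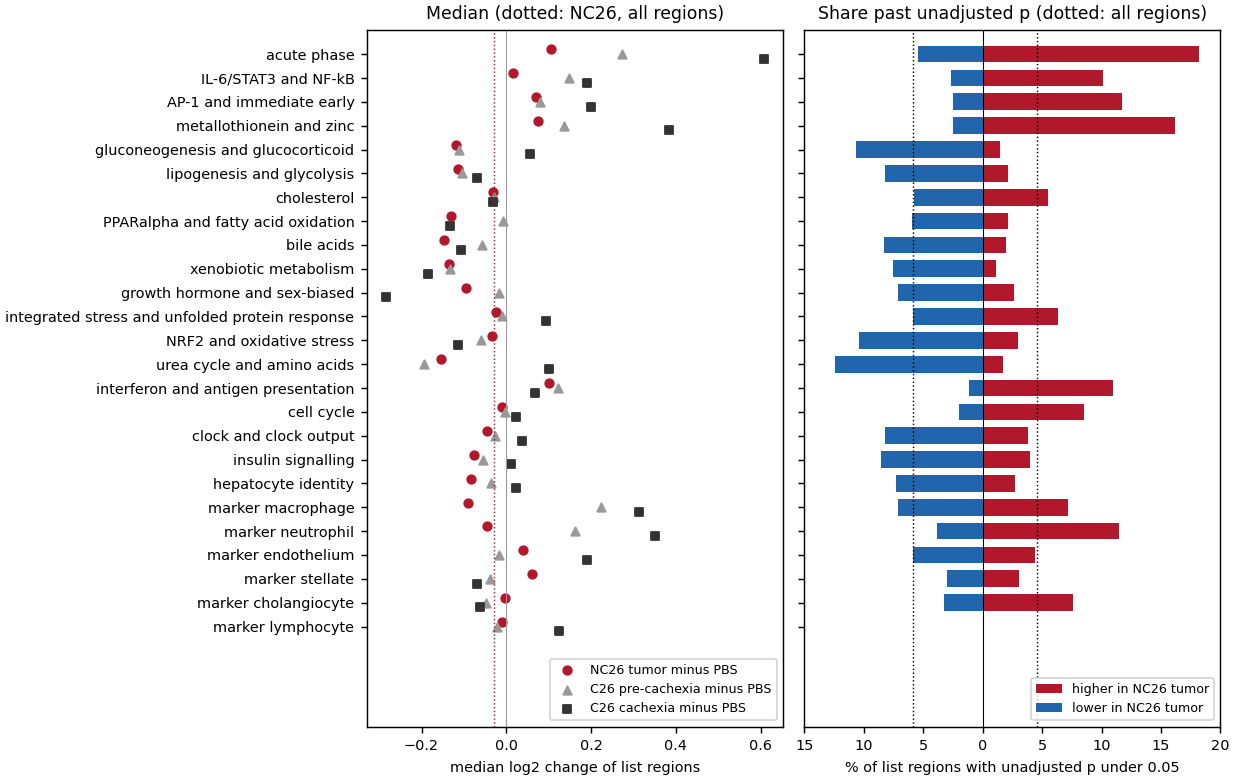
Left, median log2 change of the regions nearest to each gene list in NC26 tumor (red circles), C26 pre-cachexia (grey triangles) and C26 cachexia (black squares), each against its own PBS group, with a dotted line at the NC26 median of all regions; right, the percentage of each list's regions that were higher (red) or lower (blue) in NC26 tumor at an unadjusted p under 0.05, with dotted lines for all regions. Acute phase regions show 18.2% higher and 5.42% lower, and urea cycle regions 1.68% higher and 12.4% lower.

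The 71 regions that fell lay mostly in introns and at low signal. They had a median of 3.43 scaled tags in tumor libraries and 11 in PBS libraries (median log2 change -1.56), 63.4% lay in introns, against 46.3% of tested regions, and 0 in promoters, against 12.2%, and 45.1% were among the lowest 25% of tested regions by signal, where 6.56% of the rises lay. In 22 of the 71 no NC26 library had a peak listed, and in 4 every NC26 library had one. Tumor replicate 1, the library of 3.475 M tags, was the lowest tumor library in 55 of the 71, against 36.6% of all tested regions, and it had no tag in 36 of them. Without it 7 regions fell, 6 of them among the 71, edgeR's test called 9, and 2 fell after every library was thinned to its depth, of which 0 were among the 71. The count went the other way without tumor replicate 2, when 602 fell, and without tumor replicate 3, when 243 fell. How far its low depth contributed was not tested.

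The largest named fall lay at -23759 bp from Eid2, an inhibitor of differentiation that binds the coactivator p300. It had 6.74, 3.21, 13.4 and 10.5 scaled tags in tumor replicates 1 to 4, against 27.6, 22.6, 26.1 and 42.9 in PBS replicates 1 to 4 (chr7:28243922-28244322, log2 change -1.80 ± 0.323 SE, adjusted p = 0.00377). Tumor replicate 2, not replicate 1, was the lowest there, and this was the one named fall whose call held with each of the 8 libraries left out in turn. Several named falls lay in or near liver genes. An intron of Fgfr4, the hepatocyte receptor through which ileal FGF15 represses bile acid synthesis, had 2.7, 12.9, 10.2 and 8.51 scaled tags in tumor replicates 1 to 4, against 16.5, 20.7, 22 and 20.2 in PBS replicates 1 to 4 (chr13:55163589-55163989, log2 change -1.27, adjusted p = 0.0448). The intron of Fgl1 at 20857 bp had 2.7, 13.9, 19.2 and 15.3 scaled tags in tumor replicates 1 to 4, against 29.4, 21.1, 31.1 and 44.1 in PBS replicates 1 to 4 (chr8:41194099-41194499, log2 change -1.43, adjusted p = 0.0174). Both groups stood apart at these 2 regions, and tumor replicate 1 was well below the other tumor libraries.

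At a region at -34174 bp from Tsku, which encodes a secreted liver protein, tumor libraries averaged 8.99 ± 3.6 and PBS libraries 23 ± 2.08 scaled tags (log2 change -1.34, adjusted p = 0.0123). An intron of Egfr, the epidermal growth factor receptor, averaged 14.1 ± 3.74 and 30.8 ± 3.98 scaled tags in tumor and PBS libraries (log2 change -1.10, adjusted p = 0.0418). Acads, which encodes a mitochondrial dehydrogenase of short-chain fatty acids, averaged 10.8 ± 2.14 and 22.3 ± 3.33 at an exon (log2 change -0.99, adjusted p = 0.0442), and Usf2, a transcription factor of glucose-responsive genes, averaged 35.8 ± 9.85 and 67.9 ± 9.09 in an intron (log2 change -0.94, adjusted p = 0.0212). At Egfr, Acads and Usf2 tumor replicate 1 was not the lowest tumor library. The other named falls lay near Rnase2a, Map9, Sorcs3, Kcnip4 and Nolc1, with log2 changes of -1.46, -1.38, -1.24, -1.10 and -1.003 and adjusted p of 0.0135, 0.032, 0.0448, 0.0232 and 0.0149. Each named fall other than Eid2 missed the threshold without tumor replicate 1 (adjusted p 0.0731 to 0.352) and without 2 or more of the other libraries. All 12 kept their direction in every setting, which the naming rule nearly ensured.

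The regions that rose in NC26 tumor mice also rose in most cases in C26 mice, which were other animals with their own PBS group. Of the 259, 229 rose in C26 cachexia, which is 88.4% of the NC26 rises and 1.87% of the 12251 C26 cachexia rises, and 0 fell. Of all tested regions 6.91% rose there. In C26 pre-cachexia 174 of them rose, which is 67.2% of the NC26 rises and 10.1% of the 1720 regions that rose there (0.97% of those tested). In the further cachexia model of the series, against its own PBS mice, 214 of the 259 rose (82.6%) and 0 fell. There 12386 of the 177251 tested regions rose. The median log2 change of the 259 was 1.17 in NC26 tumor mice, 1.03 in C26 pre-cachexia, 1.32 in C26 cachexia and 1.18 in the further cachexia model. The 259 were chosen by their NC26 change, which favors a larger median in NC26. These medians therefore do not compare the size of the response between the tumors. Without tumor replicate 1 the share also rising in C26 cachexia was 68 of 73, and by edgeR 128 of 136. Of the falls, 20 of 71 also fell in C26 cachexia, which is 28.2% of the NC26 falls and 0.158% of the 12634 C26 cachexia falls, where 7.13% of all tested regions fell. That share was 42.9% of 7 falls without tumor replicate 1, 12.8% of 602 without tumor replicate 2 and 10.4% of 106 without tumor replicate 4. In pre-cachexia 9 of 71, or 12.7%, fell, where 0.296% of tested regions fell. In the further cachexia model 18 of 71, or 25.4%, fell and 2 rose, where 9537 of all tested regions fell.

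Read the other way, regions chosen in C26 mice moved by small amounts in NC26 tumor mice. The 12251 regions that rose in C26 cachexia had a median NC26 log2 change of 0.169, and 72.8% were above 0, against 45.9% of all tested regions. The 12634 that fell in C26 cachexia had a median of -0.17. The 1720 regions that rose in C26 pre-cachexia had a median of 0.506, with 93% above 0, and the medians of the 4 tumor libraries against the PBS mean of their library series were 0.598, 0.34, 0.555 and 0.589 for tumor replicates 1 to 4, against -0.09 to 0.09 for the PBS libraries. The 525 that fell in pre-cachexia had a median of -0.391, with 7.05% above 0 and tumor library medians of -0.404, -0.373, -0.194 and -0.515. Each of the 4 tumor libraries leaned the same way on both sets, the shallow library included, and without tumor replicate 1 the 2 medians were 0.466 and -0.372.

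**Figure D4:**
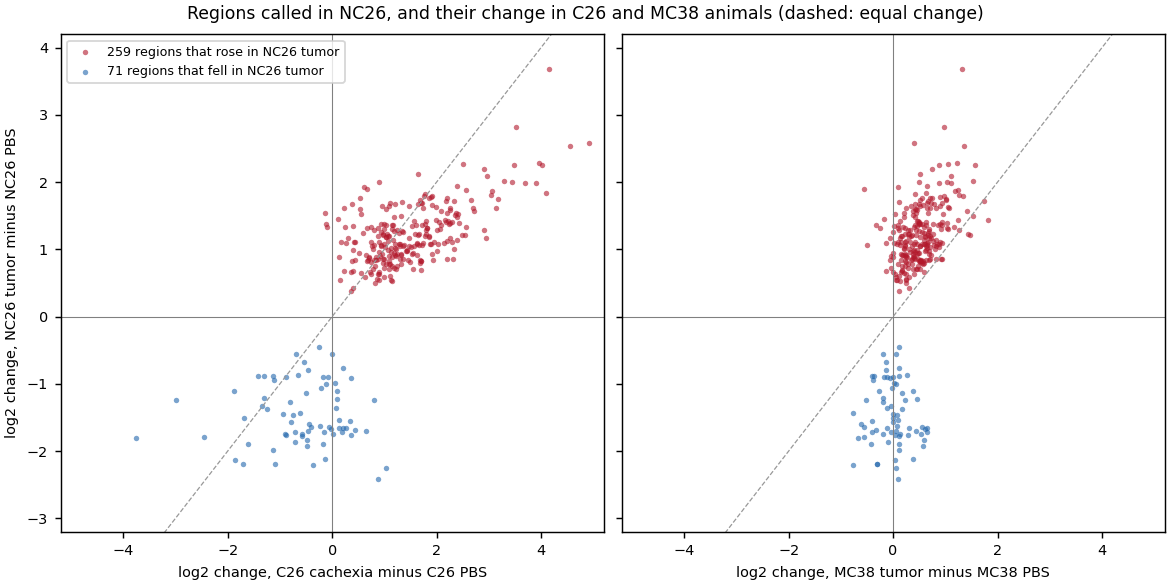
Log2 change in NC26 tumor minus NC26 PBS (vertical axis) of the 259 regions that rose (red) and the 71 that fell (blue), against the log2 change of the same regions in C26 cachexia minus C26 PBS (left) and MC38 tumor minus MC38 PBS (right); the dashed line marks equal change. Rises have a median change of 1.32 in C26 cachexia and 0.49 in MC38 mice, and falls scatter around 0 in MC38 mice. The regions were chosen by their NC26 change, which favors a larger change in NC26.

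The size of the response differed between NC26 and C26 mice at 3793 regions (2.14%), by a test of the NC26 change minus the C26 cachexia change. At 1887 of the regions that fell in C26 cachexia the NC26 change was more positive, and at 1695 of those that rose there it was more negative. Both sets were chosen by the C26 change, which is part of the tested difference. That choice favors these directions, so they say nothing about the size of the response. Among the 259 NC26 rises, 20 had a smaller change in NC26 tumor mice than in C26 cachexia and 2 a larger one. The 259 were chosen by their NC26 change, which favors a larger change in NC26. The Mt2 promoter changed by 2.58 in NC26 and 4.92 in C26 mice (difference -2.34, adjusted p = 0.0218), with means of 58.5 scaled tags in NC26 tumor, 149 in C26 pre-cachexia and 270 in C26 cachexia libraries, against 7.66 in NC26 PBS and 8.58 in C26 PBS libraries. Afdn (difference -1.75, adjusted p = 0.0297) and Ptprn2 (difference -2.25, adjusted p = 0.00779) showed the same order, as did Socs2 (-1.35, adjusted p = 0.00183), a Bcl3 intron region (-0.89, adjusted p = 0.0355) and Orm1 at -5638 bp (-0.85, adjusted p = 0.0312).

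Several panel promoters had a smaller change in NC26 than in C26 cachexia. The difference was -1.59 at Serpina3n (adjusted p = 0.0038), an acute phase protease inhibitor, -1.27 at Lcn2 (adjusted p = 0.0209) and -0.54 at Lbp (adjusted p = 0.0468). Fos and Irf1 changed by 0.75 and 0.71 in NC26 and by 1.14 and 0.79 in C26 mice, and neither difference passed (-0.39 and -0.08, adjusted p = 0.252 and 0.873). The 2 regions with a larger rise in NC26 tumor mice, chosen after their values were seen, lay at -1441 bp from Tcf7, a T cell and WNT pathway transcription factor, and in an intron of Olfm2. Tcf7 averaged 8.7 ± 5.29 and 2.25 ± 1.58 scaled tags in NC26 tumor and PBS libraries, with log2 changes of 1.55 in NC26 and -0.14 in C26 mice (adjusted p of the difference 0.0312), and its groups overlapped. Olfm2 averaged 24.2 ± 6.71 and 8.81 ± 1.39 scaled tags, with changes of 1.34 in NC26 and -0.09 in C26 mice (adjusted p of the difference 0.0414).

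Among the 71 falls, 13 were more negative in NC26 tumor mice than in C26 cachexia and 2 less so. The 71 were chosen by their NC26 change, a part of this difference, and that choice favors a more negative NC26 change. The Cyp8b1 region described above changed by -0.77 in NC26 and 0.22 in C26 mice (difference -0.98, adjusted p = 0.0106), and Il6ra by -1.70 and 0.64 (difference -2.34, adjusted p = 0.007). Eid2 and Sorcs3 were the 2 falls that were deeper in C26 cachexia, with changes of -1.80 and -1.24 in NC26 and -3.76 and -2.99 in C26 mice (differences 1.96 and 1.75, adjusted p = 0.0131 and 0.0123). At Eid2 the C26 cachexia libraries averaged 1.04 scaled tags, against 8.46 in NC26 tumor libraries, 25.9 in C26 PBS and 29.8 in NC26 PBS libraries. The count of 3793 was 2161 without PBS replicate 1, 2207 with each library's promoter share as a covariate, 1722 where library totals alone set the scale and 938 after thinning.

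Against MC38, the other weight-stable tumor, no region passed the test of the difference in effects (0%): limma called 0 regions, with 11653 at an unadjusted p under 0.05, edgeR called 0 and DESeq2 19. This does not show that the 2 tumors act alike. In MC38 tumor mice 32 regions rose (0.0181%), and 5 of the 259 NC26 rises were among them, which is 1.93% of the NC26 rises and 15.6% of the MC38 rises. They lay in Prune1 (2 overlapping regions), Iqsec1, upstream of Ptpn1 and near Gm19510. The 259 rises had a median log2 change of 0.492 in MC38 mice and were above 0 in 246, and the 71 falls had a median of -0.001. The Mt2 promoter averaged 46.2 ± 19.8 scaled tags in MC38 tumor libraries and 35.4 ± 16.4 in MC38 PBS libraries, with PBS libraries of the C57BL/6N cohort above the 7.66 of NC26 PBS libraries. Strain and tumor line cannot be told apart in this comparison.

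The share of all tags that fell in regions averaged 48.6% ± 7.75 in tumor libraries and 44.7% ± 3.94 in PBS libraries (SD, n = 4 each), a difference of 3.88 percentage points by an exact two-sided permutation test with p = 0.429. The share of region tags in promoters averaged 34.6% ± 0.399 in tumor libraries and 34.5% ± 0.368 in PBS libraries (exact permutation p = 0.886). With 4 libraries a group, the smallest p this test can give is 0.0286. Counts of calls moved with the setting, as the plot of settings shows, with more rises than falls in 20 of the 22 alternatives and more falls in the others, library series A alone (31 rises, 104 falls) and the fit without tumor replicate 2 (585 rises, 602 falls).

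**Figure D5:**
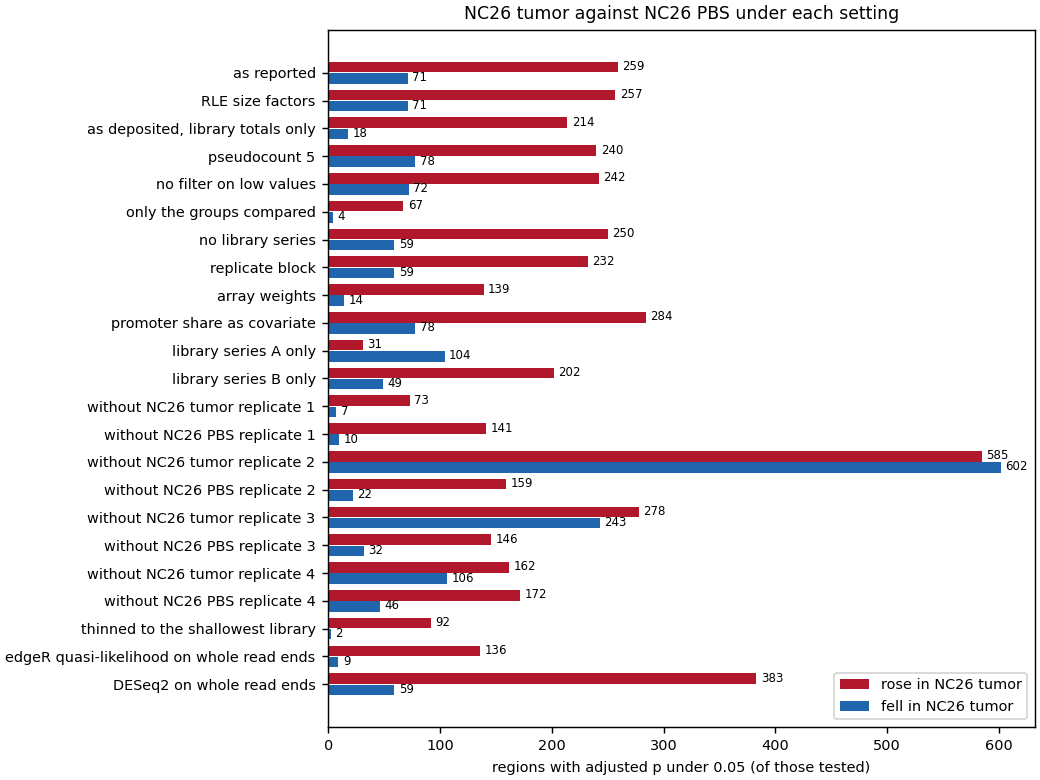
Number of regions that rose (red) or fell (blue) in NC26 tumor against NC26 PBS at an adjusted p under 0.05, in the fit as reported and in 22 alternative settings. Rises range from 31 to 585 and falls from 2 to 602, and falls are 7 without tumor replicate 1, 2 after thinning and 9 by edgeR.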

How the data were processed

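ATAC-seq was measured in INTACT-purified hepatocyte nuclei, 1 library per mouse, with about 25000 bead-bound nuclei and 12 PCR cycles, per the labels' protocols. BWA 0.7.5a-r405, SAMtools, HOMER and the mm10 build are named in the submitters' processing notes. The deposited signal is a HOMER table of 177904 merged regions in which, per the file headers, tags in 400 bp are scaled to 10 M tags per library. All values came out as whole read ends within a tolerance of 0.05. Depth was 3.475 to 16.5 M tags in the 8 NC26 libraries.

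Values were divided by TMM factors (edgeR 4.0.16) and tested as log2(value + 1) with limma 3.58.1, with trend and robust moderation, in R 4.3.3. The fit held all 35 libraries, 9 groups and a term for the library number series. The libraries of the further cachexia model and its PBS mice were among them, and so entered the shared spread and that term. edgeR's filter (minimum count 10, minimum total 15) removed 653 regions and left 177251. Benjamini-Hochberg adjustment ran over all of them, with a threshold of 0.05. The test assumed normalized values, so edgeR and DESeq2 1.42.0 were run on whole read ends as alternatives. Other alternatives changed scaling, pseudocount, filter, samples or covariates, used a replicate block, or left out each NC26 library in turn. Thinning to the shallowest library was chosen after seeing the data.

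The named regions were the 12 largest rises and 12 largest falls that passed the threshold, with signal at or above the median, groups that did not overlap, 1 region per nearest gene, and no predicted, olfactory or vomeronasal receptor, or small RNA genes. Up to 12 panel promoters and up to 3 regions of each list were taken by lowest unadjusted p, and further called regions of a list were named after their values were seen. The gene lists, the panel of 55 promoters and the comparison itself were chosen with earlier results of these data known. Replicate numbers were not taken as pairs in the fit as reported. Each library carries its own animal number in the labels, so p-values rest on a spread between animals. In the fit as reported that spread was shared over the animals of all 9 groups, not taken from the NC26 animals alone. Promoter sequences are RefSeq's and motifs were searched on both strands.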

Additional observations from a re-analysis of the deposited data

Results flagged for a closer look

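In 3 of the 78 groups of 4 libraries examined, 1 library stood far from the others, where chance gives about 1 in 20. The Irf1 promoter had 87.87 scaled tags in PBS replicate 4 and 62.45 to 66.31 in the other PBS libraries. The Lbp promoter had 169.7 scaled tags in PBS replicate 3 and 126.4 to 133.4 in the others. Tumor replicate 1 had no tag in 10.34% of regions and the other tumor libraries in 0.684 to 1.49%.

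Among the named regions, the panel promoters and the called regions of the lists, 18 passed the test of the NC26 change minus the C26 cachexia change (limma, Benjamini-Hochberg adjusted). Of all tested regions 2.14% passed it. The difference in change is given here for the 18. It was -2.341 at the Mt2 promoter, -1.753 at Afdn, -2.252 at Ptprn2, -1.35 at Socs2, -0.89 at Bcl3, -0.85 at Orm1, -2.339 at Il6ra and -0.981 at Cyp8b1. It was 1.958 at Eid2 and 1.747 at Sorcs3, which fell further in C26 cachexia. Among panel promoters it was -1.271 at Lcn2, -0.542 at Lbp, -1.59 at Serpina3n, -0.956 at Igfbp1, -0.829 at Hp, -0.543 at Cebpd, 1.096 at Acaa1b and 2.282 at Car3.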

How the results depend on the processing

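Against 259 rises and 71 falls, rises numbered 67 with only the groups compared, 139 with array weights, 31 in library series A, 92 after thinning, 136 by edgeR and 73 to 585 with 1 library left out, and falls numbered 18 with library totals only, 4 with only the groups compared, 14 with array weights, 2 after thinning, 9 by edgeR and 7 to 602 with 1 library left out. Regions differing from the C26 cachexia effect numbered 1722 with library totals only, 2207 with the promoter share as a covariate, 938 after thinning and 2161 to 4569 with 1 library left out. Regions differing from the MC38 effect numbered 1 with RLE factors, 3 with a pseudocount of 5, 1 with no filter, 3 with no library series, 2 after thinning, 19 by DESeq2 and 0 to 12 with 1 library left out. The tumor minus PBS difference was 1.777 to 7.617 percentage points for tags in regions and -0.121 to 0.198 for the promoter share with 1 library left out, and -0.036 for the promoter share within 1 kb of start sites. Thinning and leaving out a library use fewer tags or samples, and other causes were not tested. With the replicate block, 232 regions rose, 59 fell and 3548 differed from the C26 cachexia effect. Same-numbered libraries correlated by -0.022 to 0.127. Tumor replicates 1, 2 and 3 correlated best with the PBS library of the same number (0.045, 0.127 and 0.05). Tumor replicate 4 did so with PBS replicate 3 (0.19). PBS replicates 3 and 4 correlated best with tumor replicates 4 and 2 (0.19 and 0.049). The 24 named regions kept their direction in all 22 settings, which their choice by groups that do not overlap nearly ensured. Low depth in tumor replicate 1 limits what can be said of falls at low signal.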
